A study of Arabidopsis thaliana with 4 samples.

Results

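The transfer RNA (tRNA) genes of the Arabidopsis chloroplast genome, 37 of the 38194 genes in the gene table, were followed as sources of small RNAs. They were chosen from a list of gene identifiers and not by any measured value. The libraries came from Arabidopsis thaliana seedlings taken 10 days after germination, 2 libraries of the genotype PORI, labelled as the control, and 2 of the genotype PORI rpt2a, whose titles write it as PORIxrpt2a. Both groups carry PORI, which the labels do not spell out, and neither the rpt2a allele nor the number of seedlings per library is given in the sources used here. RPT2a is a subunit of the regulatory particle of the 26S proteasome, and the series asks how small RNA populations differ when it is mutated.

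A tRNA carries an amino acid to the ribosome. The chloroplast transcribes its own set, and as background each precursor is cut at its 5' end by RNase P and at its 3' end by RNase Z before CCA is added. In flowering plants some tRNA genes lie in the inverted repeat of the chloroplast genome and so exist as identical copies, and several carry introns. Pieces of mature tRNAs are common in plant small RNA libraries, and green tissue yields many from the chloroplast. Reads of 18 to 26 nt were counted here, so longer pieces of tRNAs were not measured.

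The identifiers carry no names in the files. A RefSeq gene table lists the same number of plastid tRNA genes, 37, but under other identifiers, and 0 of the 37 could be paired with it. The tRNAs are therefore given by identifier, with no amino acid, anticodon, intron, position or sequence. In RefSeq 29 of those genes span under 100 bases and 8 span over 500 bases, and 7 mirrored pairs of equal length lie in the inverted repeat.

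The count data themselves held 7 pairs. Among the 666 possible pairs of the 37 genes, 7 had counts per library and read length that differed by no more than counting error (chi-square p from 0.265 to 0.963) and were each other's nearest match. They were ATCG00850 with ATCG01290, ATCG00880 with ATCG01260, ATCG00910 with ATCG01220, ATCG00930 with ATCG01200, ATCG00940 with ATCG01190, ATCG00980 with ATCG01150, and ATCG00990 with ATCG01140. ATCG00940 and ATCG01190, the pair with the most reads, had 7345 and 7375 counts over the 4 libraries, so reads had been divided evenly between them. A read of such a pair cannot be placed on 1 member, and the members of a pair are not independent measurements. ATCG00460, with 33 counts in all, also fell within counting error of ATCG00850 and ATCG01290 and was too sparse to tell. With each pair summed, the 37 genes gave 30 tRNAs. Counts of genes or members below include both identifiers of a pair, so they overstate the number of separate tRNAs.

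The 3 count tables of a library, for miRNAs, genes and transposable elements, summed to between 3241463 and 5884528 counts, the lowest in the second PORI rpt2a library. Nothing in the labels says that the 2 libraries of a genotype came from separate cultures, so p-values measure the spread between libraries, which may be technical. The second mutant library stood farthest from the PORI libraries: over the tested genes its log2 CPM (counts per 1e6 gene reads) correlated with the other 3 libraries at 0.730, 0.749 and 0.845, against 0.929 between the PORI libraries and 0.862 and 0.843 between PORI rpt2a 1 and these. Its gene reads were also shorter, 43.2% at 18 to 20 nt against 28.4% to 32.6% in the others. Results that rest on it are given with and without it. Chloroplast-bearing tissue was present in all 4 libraries, since the 4 genes listed as chloroplast rRNA genes had 14227 to 196817 counts each. The seed storage gene CRU3 had 0 or 1. The listed root gene PYK10 had 123 and 105 counts in PORI 1 and 2, and 84 and 31 in PORI rpt2a 1 and 2. In such bulk samples fewer chloroplast-rich cells and less RNA per cell cannot be told apart.

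Chloroplast tRNA genes held 43823 counts in PORI 1, 33438 in PORI 2, 36532 in PORI rpt2a 1 and 22567 in PORI rpt2a 2, and the 4 libraries are listed in this order below. That was 0.933%, 0.828%, 0.760% and 0.782% of the gene counts, and the 95% Wilson intervals, which cover counting error only, were 0.925% to 0.942% for the first and 0.772% to 0.792% for the last. Both mutant libraries lay below both PORI libraries, at 0.771% ± 0.0153 against 0.881% ± 0.0744 (SD, n = 2 each). The difference of -0.110 percentage points had an exact two-sided permutation p of 0.33, the smallest that 2 against 2 libraries can give, and 0.33 after adjustment over the 3 summary measures tested. Without PORI 1 the difference was -0.057 points. As a share of the counts of the 3 tables the tRNA genes held 0.755%, 0.695%, 0.621% and 0.696%, so PORI rpt2a 2 was just above PORI 2 and the groups overlapped (exact permutation p of 0.67). As a share of all chloroplast counts they held 4.83%, 4.41%, 4.34% and 5.51%, highest in PORI rpt2a 2, with an exact permutation p of 1.0.

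Reads were spread unevenly over the tRNAs. Mean counts per 1e6 gene reads (CPM, normalised by trimmed mean of M-values and not divided by gene length, since the length behind each identifier is not known) ran from 2.21 to 1842. They were at least 100 for 17 tRNAs and lower for 13. The 8 tRNAs with the most reads held 63.1%, 66.2%, 63.8% and 71.6% of all chloroplast tRNA counts. This order is one of read numbers and not of tRNA molecules. Over all read lengths the scaling factors were 1.23, 1.02, 1.15 and 0.696 in the order given. They raise PORI rpt2a 2 against the others, so the order of libraries in CPM can differ under another scaling.

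**Figure D1:**
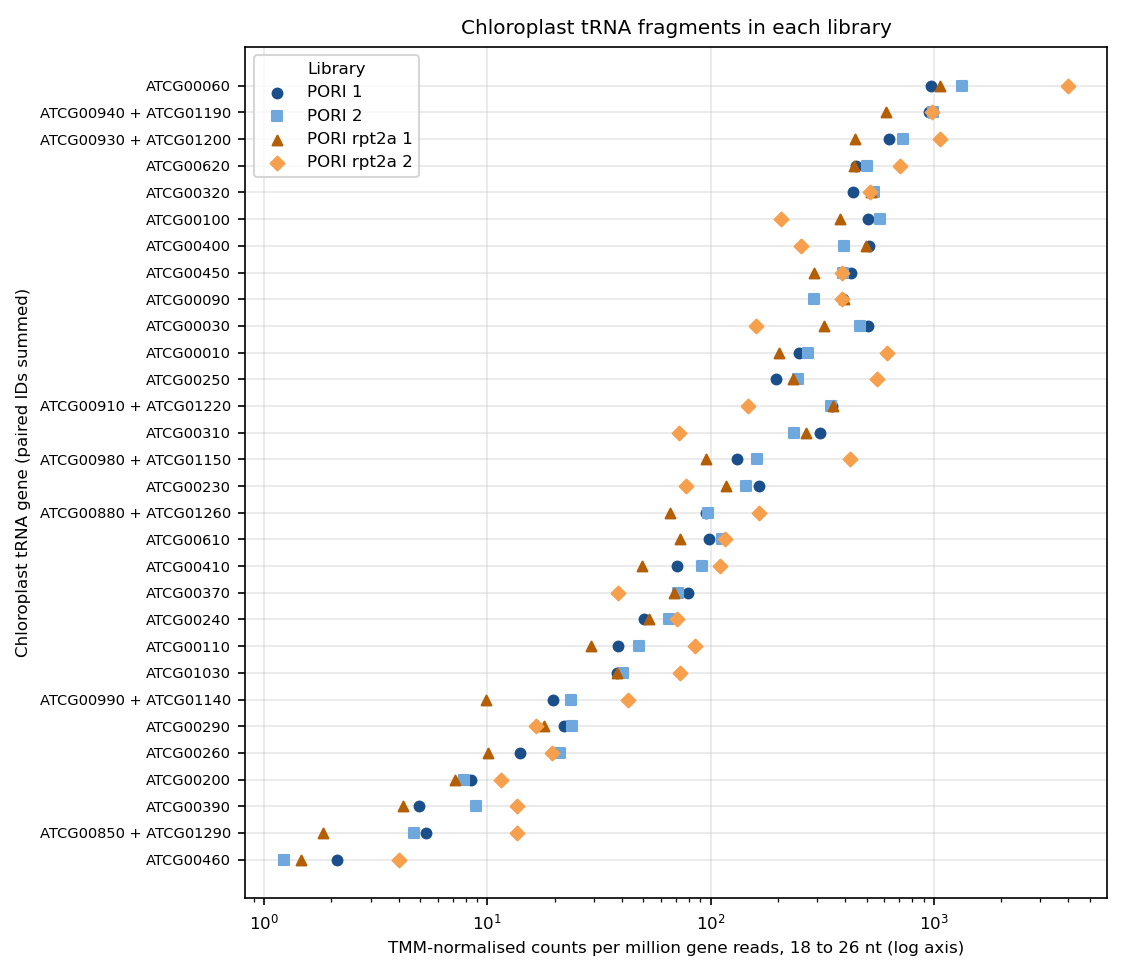
Normalised CPM (log axis) of 30 chloroplast tRNAs, with paired identifiers summed, in each of the 4 libraries; 1 symbol is 1 library. ATCG00060 has the most reads, and for many tRNAs PORI rpt2a 2 is the library farthest from the other 3, to the right for some and to the left for others.

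ATCG00060 led in every library. It had 970, 1341, 1072 and 3987 CPM, from 5499, 5435, 5863 and 7945 counts. The first 3 libraries lay close together and the second mutant library alone was high, although it was the library with the fewest reads. PORI rpt2a 1 lay between the PORI libraries, so the groups overlapped.

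The pair ATCG00940 and ATCG01190 followed with 949, 997, 610 and 985 CPM for the sum of both. Here PORI rpt2a 1 was low and PORI rpt2a 2 lay between the PORI libraries. The pair ATCG00930 and ATCG01200 had 633, 726, 443 and 1065 CPM, from 3589, 2943, 2426 and 2122 counts. Its lowest and its highest library in these CPM were both mutant. Under this scaling PORI rpt2a 1 was below both PORI libraries for 28 of the 37 genes, while PORI rpt2a 2 was the highest of the 4 for 23 and the lowest for 9. Over all tested genes these shares were 41.9%, 30.9% and 38.0%. Scaled to the total of the 3 tables the counts were 25, 17 and 13, against 39.9%, 11.3% and 55.4% of all tested genes.

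ATCG00620 had 447, 501, 439 and 709 CPM, from 2536, 2031, 2401 and 1412 counts. ATCG00320 had 433, 542, 525 and 518 CPM, from 2453, 2196, 2873 and 1032 counts. For ATCG00320 both mutant libraries lay within the range of the PORI libraries under this scaling. ATCG00100, ATCG00400 and ATCG00450 completed the 8. ATCG00100 had 509, 573, 379 and 206 CPM, with both mutant libraries below both PORI libraries. ATCG00400 had 514, 395, 499 and 253 CPM, and only PORI rpt2a 2 was below the control range. ATCG00450 had 425, 391, 292 and 387 CPM, and the second mutant library was just under the lower PORI library.

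At the other end of the order, ATCG00460 had 12, 5, 8 and 8 counts, and the pair ATCG00850 and ATCG01290 had 30, 19, 10 and 27. ATCG00390 and ATCG00200 had between 23 and 48 counts per library. At this depth no length profile could be drawn for them. Of the 30 tRNAs, 22 had at least 100 counts in each library and the other 8 did not.

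Each tRNA left its own pattern of read lengths. In PORI 1 the most frequent length was 18 nt for 4 of the 22 tRNAs, 19 nt for 4, 20 nt for 1, 21 nt for 4, 23 nt for 1, 24 nt for 4, 25 nt for 1 and 26 nt for 3. The distance between 2 profiles is given here as the share of reads, in percentage points, that would have to change length for them to be alike. Different tRNAs in PORI 1 were a median of 37.6 points apart (range 10.1 to 71.2 over 231 pairs). The same tRNA in PORI 1 and PORI 2 was 6.44 points apart (median over the 22). By these medians profiles differed more between tRNAs than between the control libraries.

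**Figure D2:**
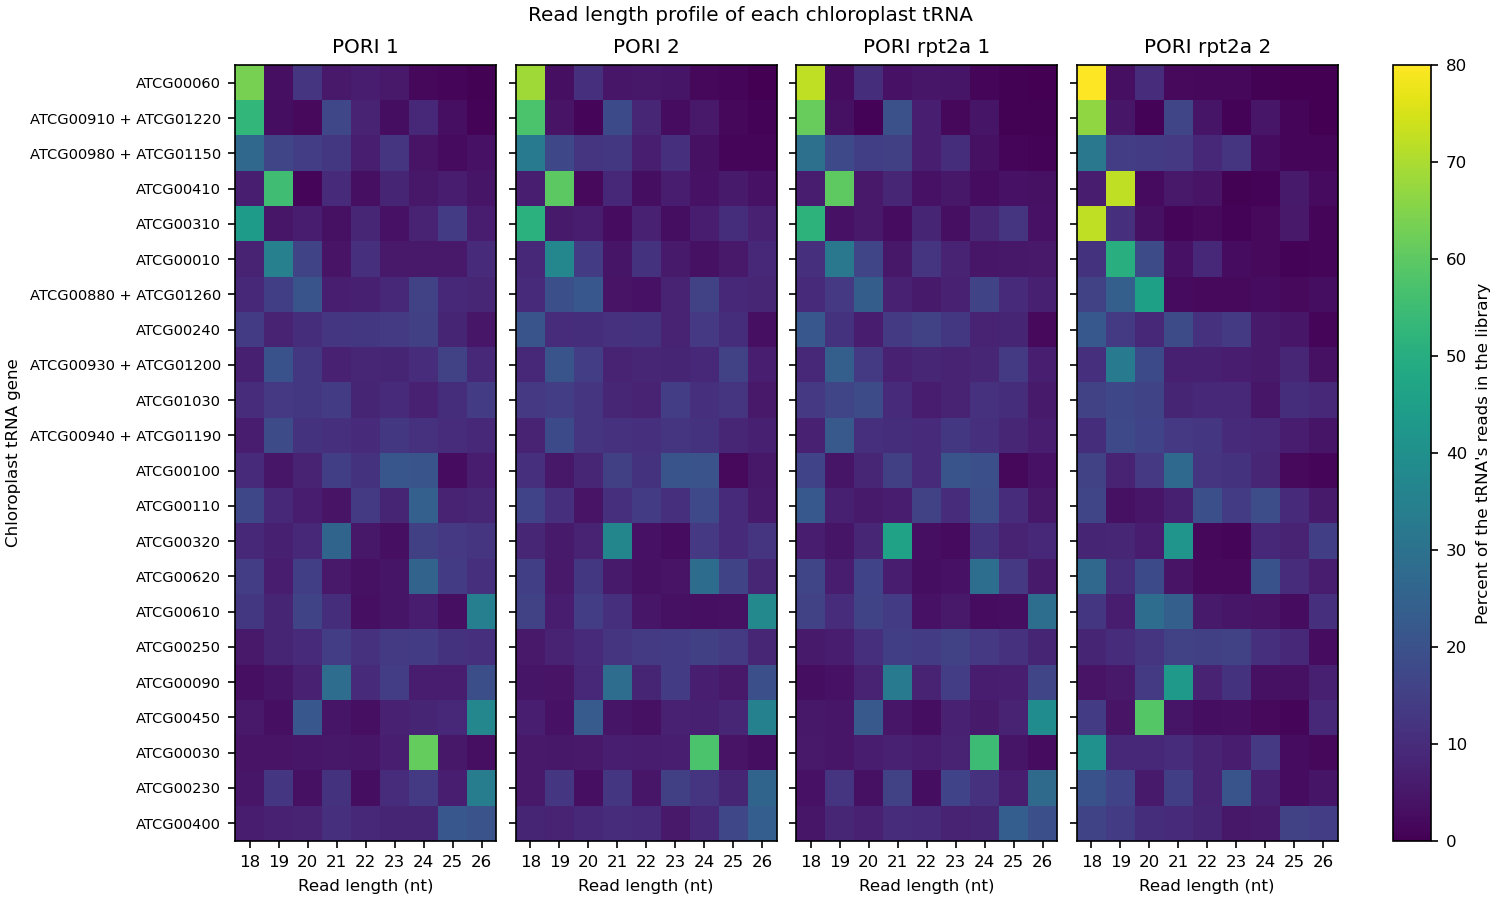
Read length profiles of the 22 chloroplast tRNAs with at least 100 counts in each library, 1 panel per library; a row is a tRNA, a column a read length from 18 to 26 nt, and colour is the percent of that tRNA's reads. The bright cells stand in the same columns in the first 3 panels, and in PORI rpt2a 2 several of those at 24 and 26 nt are dim.

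For 5 tRNAs more than 30% of the reads had one and the same length in all 4 libraries. ATCG00060 was the extreme case and had the shortest reads of the 22, with mean lengths of 19.20, 19.02, 18.86 and 18.51 nt. Its 18 nt reads numbered 3494, 3724, 4236 and 6358, which was 63.5%, 68.5%, 72.2% and 80.03% of its counts. The share was higher in both mutant libraries than in both PORI libraries. These reads of 1 gene were between 43.4% and 72.7% of all 18 nt reads of the chloroplast tRNA genes. The profile most like it was that of the pair ATCG00910 and ATCG01220, at a mean distance of 23.2 points over the 4 libraries, with 53.1%, 57.2%, 61.5% and 66.8% of its reads at 18 nt.

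ATCG00410 peaked 1 base higher, with 55.5%, 59.9%, 60.1% and 72.3% of its reads at 19 nt. ATCG00010 also peaked at 19 nt, with 34.9%, 37.2%, 31.9% and 50.2%. ATCG00310 had 44.3%, 50.9%, 51.8% and 72.2% of its reads at 18 nt. In each of these 3 tRNAs the second mutant library had the highest share at the peak.

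The pairs ATCG00940 with ATCG01190 and ATCG00930 with ATCG01200 had broad profiles with a low peak at 19 nt. The first held 18.4%, 17.9%, 22.5% and 17.6% of its reads there and the second 20.3%, 20.6%, 24.3% and 33.1%. They were each other's nearest profile, at a mean distance of 13.6 points, the smallest among the 8 tRNAs with the most reads. In PORI rpt2a 2 that distance was 20.004 points, against 10.1 to 12.8 in the other libraries.

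ATCG00320 peaked at 21 nt, the length at which DCL4 and DCL1 products of plants also lie, with 635, 804, 1327 and 429 reads of that length. That was 25.9%, 36.6%, 46.2% and 41.6% of its counts, higher in both mutant libraries than in both PORI libraries. Its nearest profile was ATCG00090, at a mean distance of 24.7 points, with 28.7%, 28.7%, 33.2% and 43.2% at 21 nt. Length alone does not show which enzyme made a read.

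Longer reads marked another set. ATCG00030 had 61.0%, 57.2%, 55.0% and 13.2% of its reads at 24 nt, from 1759, 1087, 970 and 42 counts. Its 18 nt reads numbered 123, 101, 96 and 128, or 21.7, 24.9, 17.5 and 64.2 CPM, so PORI rpt2a 2 was the lowest library at 24 nt and the highest at 18 nt. The most frequent length was 24 nt in 3 libraries and 18 nt, at 40.4%, in the fourth. Over the 22 tRNAs, this was the largest distance of any tRNA between PORI 1 and PORI rpt2a 2, at 52.6 points.

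ATCG00450 had 2 peaks. At 26 nt it had 889, 558, 619 and 70 reads, which was 36.9%, 35.2%, 38.8% and 9.07% of its counts. At 20 nt it had 524, 366, 356 and 454 reads, or 21.8%, 23.1%, 22.3% and 58.8%. The first 3 libraries were alike at both lengths. ATCG00610, its nearest profile at 24.2 points, also peaked at 26 nt in those 3 libraries, with 34.6%, 37.8% and 28.8%, and had 10.8% there in the fourth. ATCG00230 had 33.8%, 25.7%, 27.5% and 4.55% of its reads at 26 nt.

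ATCG00400 had the longest reads of the 22 tRNAs over the 4 libraries, with mean lengths of 22.98, 22.86, 23.04 and 21.83 nt. Its reads of 25 nt were 21.7%, 17.2%, 23.96% and 15.6% of the total and those of 26 nt were 20.3%, 23.9%, 19.4% and 14.5%. ATCG00620 had 25.4%, 28.4%, 28.9% and 20.04% of its reads at 24 nt, its most frequent length in the first 3 libraries. In PORI rpt2a 2 that was 18 nt, at 26.9%. ATCG00100 had 21.3%, 20.9%, 20.7% and 11.7% at 23 nt, with similar shares at 24 nt in the first 3 libraries, and in PORI rpt2a 2 its most frequent length was 21 nt, at 27.5%. For these 3 tRNAs, too, the second mutant library had the lowest share at 25 and 26, 24 and 23 nt respectively.

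**Figure D3:**
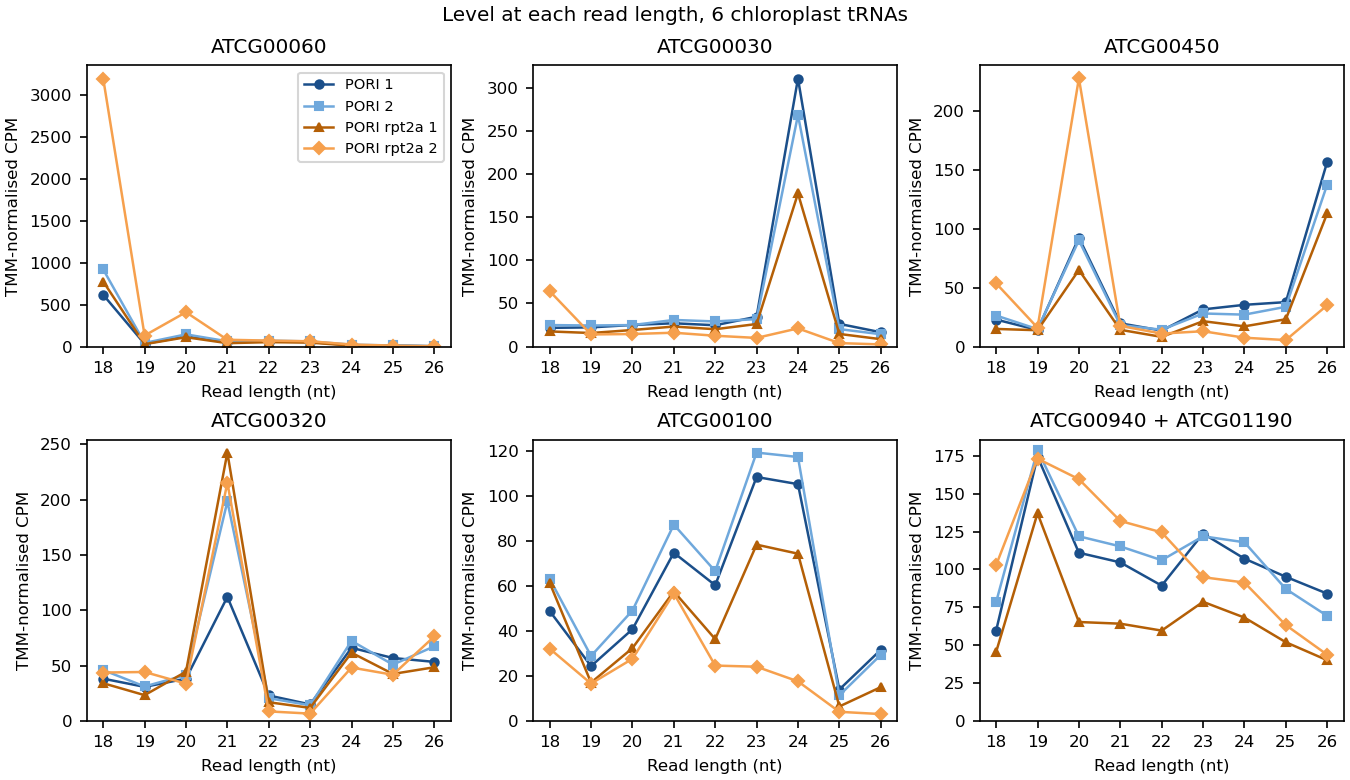
Normalised CPM at each read length (nt) for 6 chloroplast tRNAs, 1 line per library; each panel has its own vertical axis. The 24 nt peak of ATCG00030 and the 26 nt peak of ATCG00450 are lowest in PORI rpt2a 2, and the 18 nt peak of ATCG00060 is high in that library only.

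Pooled over the 37 genes, fragments averaged 21.7, 21.4, 21.3 and 20.1 nt. The mutant mean was 20.7 ± 0.881 nt against 21.6 ± 0.224 nt in PORI (SD, n = 2 each), a difference of -0.867 nt with an exact two-sided permutation p of 0.33, the smallest possible. Without PORI rpt2a 2 the difference was -0.245 nt, and without PORI rpt2a 1 it was -1.49 nt. Both mutant libraries were below both controls, but the first by little.

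Reads of 18 to 20 nt were 39.0%, 43.4%, 43.5% and 66.9% of the chloroplast tRNA counts, and the Wilson interval of the last was 66.2% to 67.5%. The difference between genotypes was 14.0 percentage points (55.2% ± 16.5 against 41.2% ± 3.10, SD, n = 2 each; exact permutation p of 0.33). It was 2.37 points without PORI rpt2a 2 and 25.7 points without PORI rpt2a 1. Reads of 24 nt were 14.0%, 12.8%, 11.7% and 5.19%. With ATCG00060 left out, 33.2%, 35.7%, 35.5% and 52.3% of the reads were 18 to 20 nt, so PORI rpt2a 1 lay within the PORI range and PORI rpt2a 2 alone was high (exact permutation p of 0.67). With 1 identifier of each pair counted, PORI rpt2a 1 was also below PORI 2, at 42.8% against 42.99% (exact permutation p of 0.67).

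The same library had the shortest reads in the other gene classes. At 18 to 20 nt nuclear tRNA genes had 26.97%, 32.8%, 31.5% and 63.8% of their reads, and the 97 other chloroplast genes had 35.9%, 41.5%, 43.6% and 54.7%. The part of the whole library's read length in the tRNA profiles was not tested.

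**Figure D4:**
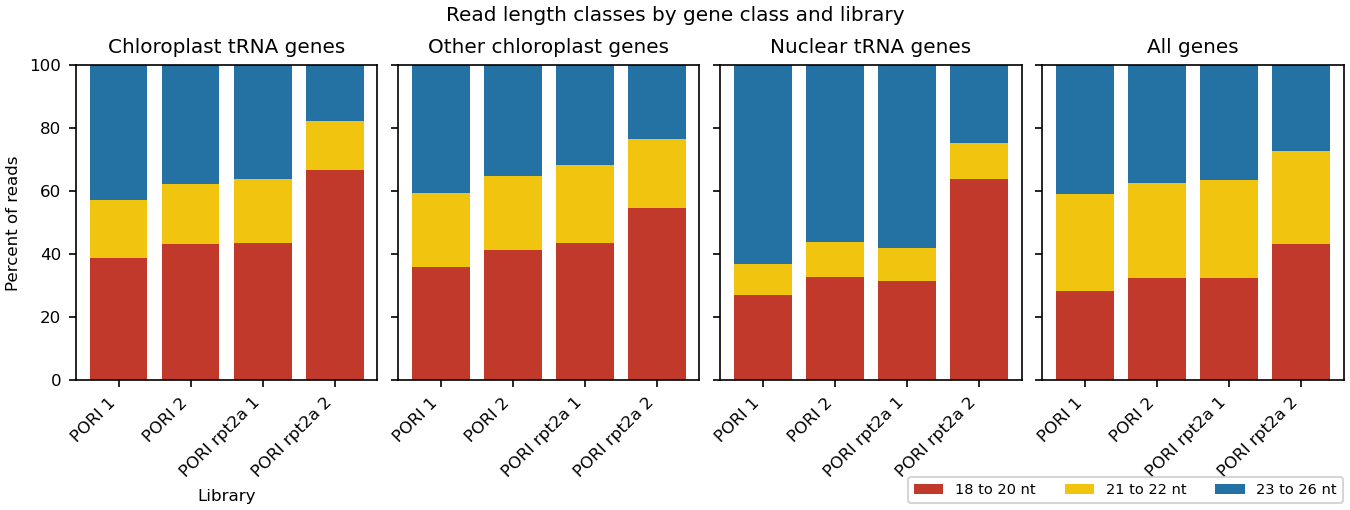
Percent of reads (stacked to 100) of 18 to 20, 21 to 22 and 23 to 26 nt in each library, for chloroplast tRNA genes, other chloroplast genes, nuclear tRNA genes and all genes. PORI rpt2a 2 has the most 18 to 20 nt reads in all 4 classes.

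The shift was seen in most tRNAs that had a profile. PORI rpt2a 2 had the shortest mean length of the 4 libraries in 19 of the 22 tRNAs, and in 79.7% of the 548 genes of any kind with at least 100 counts in each library. Both mutant libraries were shorter than both PORI libraries in 16 of the 22 tRNAs and longer in 0, and shorter in 63.1% of the 548 genes. Shorter reads were thus common to most genes with this many counts. The profile of a tRNA in PORI rpt2a 2 differed from that in PORI 1 by a median of 19.7 points and from that in PORI rpt2a 1 by 16.1 points. PORI rpt2a 1 was 7.80 points from PORI 1 and 6.12 from PORI 2, close to the 6.44 between the PORI libraries. The most frequent length was the same in the first 3 libraries for 17 of the 22 tRNAs and in all 4 for 11.

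The profiles of 2 tRNAs differed between PORI 1 and PORI rpt2a 2 by about as much as between the PORI libraries. The pair ATCG00980 with ATCG01150 had mean lengths of 20.43, 20.05, 20.09 and 20.13 nt and held 26.98%, 33.3%, 29.4% and 31.98% of its reads at 18 nt. Its distance from PORI 1 to PORI rpt2a 2 was 7.94 points, the smallest of the 22, against 7.36 between the PORI libraries. For ATCG01030, which has fewer reads, the distances were 13.9 and 14.7 points. Both were picked out after their values were seen.

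The genotypes were compared gene by gene with edgeR's quasi-likelihood test over the whole gene table, with Benjamini-Hochberg adjustment at 0.05. Over all read lengths 8110 genes were tested and 2 passed, or 0.0247%, while 1868 had an unadjusted p under 0.05. All 37 chloroplast tRNA genes were tested. Of these, 0 passed and 0 had an unadjusted p under 0.05, and the lowest adjusted p was 0.250. By DESeq2, where 7.26% of all genes passed, 0 of the 37 passed as well, with 2 at an unadjusted p under 0.05. Log2 fold changes of PORI rpt2a over PORI were above 0 for 22 genes and below for 15, where 51.4% of all tested genes were below. They ran from -1.02 to 1.13, with a median of 0.14, against -0.036 over all tested genes. Both mutant libraries were below both PORI libraries for 7 of the 37, or 18.9%, against 29.6% of all tested genes, and above for 0 against 27.5%. The other chloroplast genes had 75% below and 0% above, and the nuclear tRNA genes 20.9% and 17.0%. Other scalings gave 10 of the 37 below against 34.5% of all genes (3 tables) and 8 against 27.5% (chloroplast counts). Total gene counts, added after seeing the data, gave 13, or 35.1%, against 34.5%. Above were 1, 3 and 1 of the 37 under these scalings, against 19.6%, 25.7% and 17.8% of all genes.

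The largest positive fold change was that of ATCG00060, 1.13 ± 0.69 on the log2 scale (SE; edgeR adjusted p = 0.382). It was -0.029 without PORI rpt2a 2, and 1.84 with an edgeR adjusted p of 3.77e-06 without PORI rpt2a 1. The pair ATCG00980 and ATCG01150 came next, at 131, 162, 95.8 and 421 CPM, with ATCG00980 at 0.85 ± 0.72 and ATCG01150 at 0.77 ± 0.62. ATCG00250 had 197, 245, 234 and 555 CPM (0.83 ± 0.50). Without PORI rpt2a 2, ATCG00980 was at -0.66 and ATCG00250 at 0.16. In all of these the groups overlapped and PORI rpt2a 2 was the only library far above the others.

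The pattern was the same in the remaining tRNAs with large positive values. ATCG00010 had 248, 273, 202 and 616 CPM (0.65 ± 0.57), and ATCG01030 had 38.3, 40.5, 38.2 and 72.8 CPM (0.49 ± 0.39). Without PORI rpt2a 2 they were at -0.29 and 0.038. For ATCG00010 the lowest library was PORI rpt2a 1 and the highest PORI rpt2a 2.

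ATCG00030 had the largest negative fold change. It had 509, 469, 322 and 159 CPM, both mutant libraries below both controls, and a log2 fold change of -1.02 ± 0.45 (edgeR adjusted p = 0.250). Without PORI rpt2a 2 it was -0.52 and without PORI rpt2a 1 it was -1.56. ATCG00100 (-0.88 ± 0.43) and ATCG00230 (-0.67 ± 0.36; 166, 144, 118 and 77.3 CPM) also had both mutant libraries below both controls, and were at -0.43 and -0.31 without PORI rpt2a 2. So did ATCG00370, at 79.6, 71.8, 68.4 and 38.6 CPM (-0.49 ± 0.37), which was at -0.065 without that library.

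ATCG00310 differed from these. It had 311, 236, 267 and 72.3 CPM, so PORI rpt2a 1 lay between the controls and the fold change of -0.68 ± 0.63 came from the second mutant library alone. Without that library it was 0.052, and without the first it was -1.86.

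**Figure D5:**
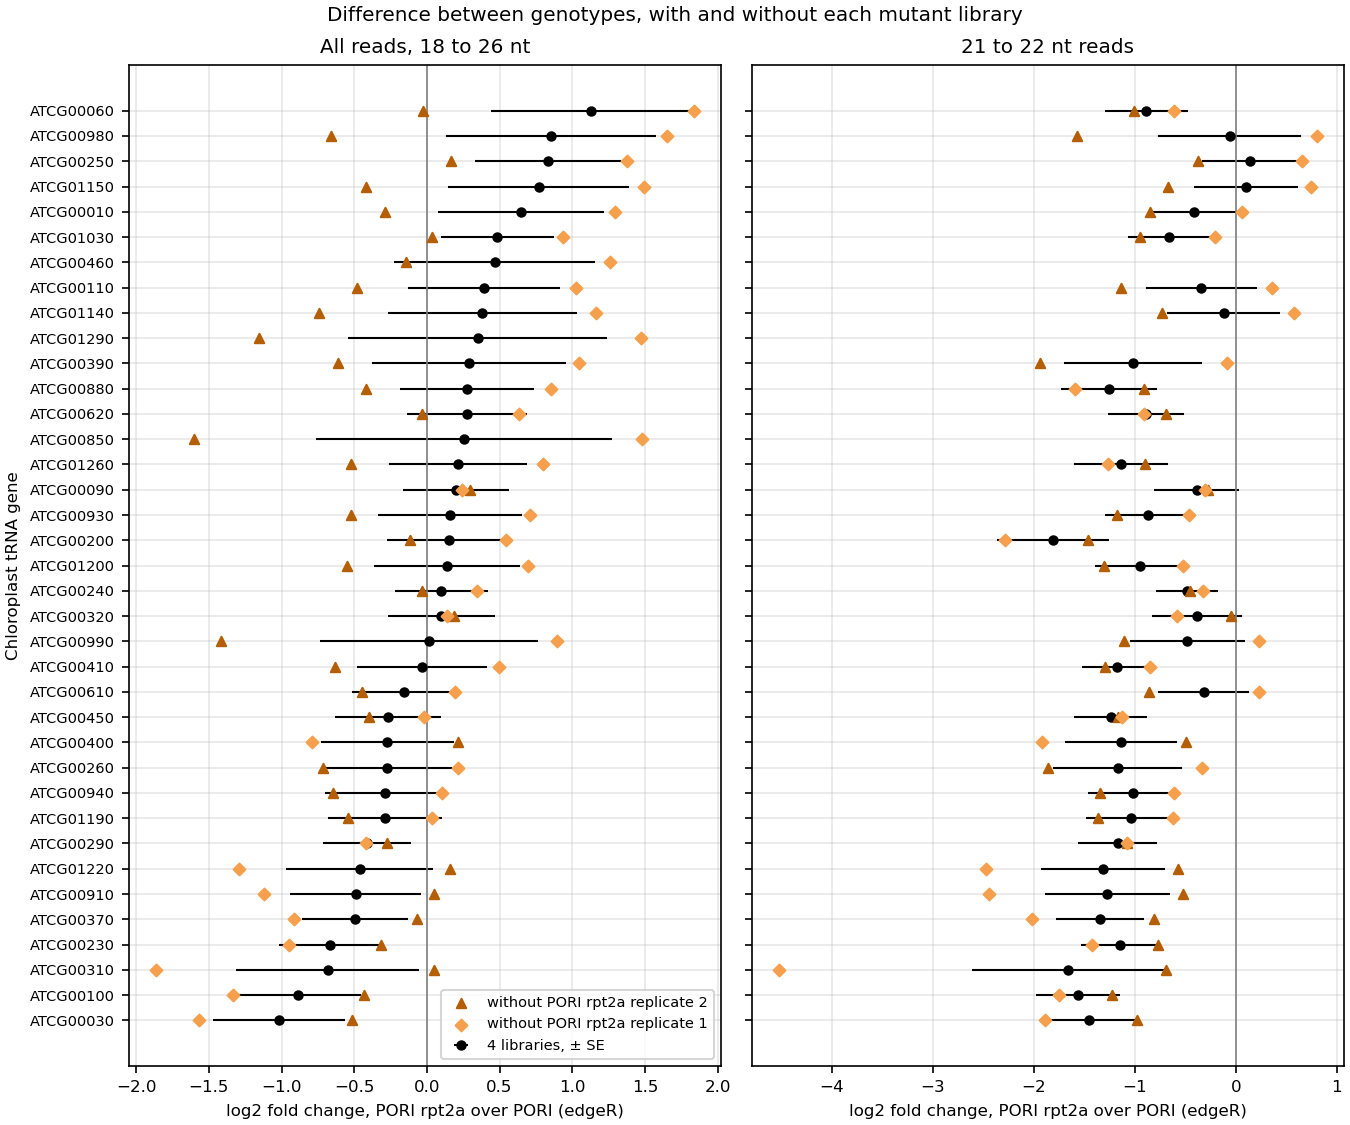
Log2 fold changes (PORI rpt2a over PORI, edgeR) of the chloroplast tRNA genes in reads of 18 to 26 nt (left) and of 21 to 22 nt (right); black points with bars are the fit to 4 libraries ± SE, triangles leave out PORI rpt2a replicate 2 and diamonds PORI rpt2a replicate 1. On the left the triangles and diamonds often lie on opposite sides of 0, and on the right most of both lie below 0.

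The 2 mutant libraries therefore gave different answers for single genes. Without PORI rpt2a 1, 20 of the 37 passed, 12 higher and 8 lower in the mutant, where 16.1% of all tested genes passed higher and 13.5% lower. Without PORI rpt2a 2, 1 passed, ATCG00990 (-1.42, edgeR adjusted p = 0.0358), where 2.08% of all genes passed lower. Its paired identifier ATCG01140 was at -0.74 with an edgeR adjusted p of 0.247. In each of these fits 1 mutant library is assumed to vary like the PORI libraries. The median over the 37 genes was 0.55 in the first and -0.42 in the second.

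Splitting the reads by length gave a more even direction at 21 to 22 nt in the main scaling. The members held 8070, 6324, 7454 and 3496 reads of this length, which was 0.556%, 0.519%, 0.498% and 0.411% of all such gene counts, lower in both mutant libraries. Of 3046 genes tested 0 passed (0.0%; 1096 at an unadjusted p under 0.05), and of the 34 members tested 0 passed and 10 had an unadjusted p under 0.05. Log2 fold changes were below 0 for 32 of the 34, against 51.3% of all tested genes. Their median was -1.02 against -0.057 over all genes.

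That level depended on the scaling. With counts scaled to the total of the 3 tables the median of all genes moved to 0.55 and that of the members to -0.44. Members then lay 0.99 below the median gene, and 0.96 below it in the main scaling. A change of scaling shifts all genes by nearly the same amount. This gap could therefore hardly change, and its likeness under the scalings is no check on it. The gap was 0.39 without PORI rpt2a 1, when the members' median was -0.61, and 0.25 with no low-count filter. Scaled to the 3 tables, 23 of the 34 members were below 0, against 35.9% of all tested genes. Both mutant libraries were below both controls for 25 of the 34 tested members (73.5%, against 36.6% of all genes) in the main scaling, and for 13 of the 34 (38.2%, against 19.9% of all genes) scaled to the 3 tables. The other chloroplast genes did the same, with 88 of 88 tested below 0, a median of -1.41 and 96.6% without overlap, so the direction was not particular to tRNA genes.

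Among single genes at 21 to 22 nt, ATCG00100 had the lowest adjusted p (log2 fold change -1.56 ± 0.42; edgeR adjusted p = 0.0755). ATCG00030 was at -1.45 ± 0.45 (0.0842), ATCG00450 at -1.24 ± 0.36 (0.0804) and ATCG00200, a gene with few reads, at -1.81 ± 0.55 (0.0826). Scaled to the total of the 3 tables, 0 of the 34 members had an unadjusted p under 0.05. The lowest edgeR adjusted p of a member was then 0.172. By DESeq2, ATCG00100 and ATCG00030 passed, with adjusted p-values of 0.0144 and 0.0428, where 2.72% of all genes passed lower. Leaving out PORI rpt2a 1 or PORI rpt2a 2 gave 9 genes each, all lower in the mutant, where 9.1% and 6.33% of all genes passed lower. ATCG00100 and ATCG00450 were in both sets of 9, and were chosen for mention after their values were seen. The only members above 0 were ATCG00250 and ATCG01150, at 0.15 and 0.10.

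At 23 to 26 nt the members held 0.976%, 0.836%, 0.756% and 0.505% of the gene counts of these lengths. Of 5862 genes 2 passed (0.0341%), and of the 33 members tested 0 passed and 3 had an unadjusted p under 0.05. Log2 fold changes were below 0 for 25 of the 33, against 52.1% of all tested genes. Their median was -0.45 against -0.068 over all genes. The other chloroplast genes had 86 of 90 below 0 and a median of -0.79, so this direction was not particular to tRNA genes either. Without PORI rpt2a 1 the medians of the members and of all genes were -0.22 and -0.25. With no low-count filter they were -0.22 and -0.35, so in both fits members were not below the median gene. Both mutant libraries were below both controls for 15 of the 33 members, where 32.4% of all genes and 84.4% of the other chloroplast genes were. Scaled to the 3 tables this was 21 of the 33, where 35.0% of all genes were. Without PORI rpt2a 1, 10 passed lower and 4 higher, where 13.4% and 15.4% of all genes did. Without PORI rpt2a 2, 4 passed, all lower, where 4.1% of all genes did.

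At 18 to 20 nt the share of the gene counts was 1.28%, 1.11%, 1.01% and 1.21%, and the groups overlapped. Of 1444 genes 0 passed edgeR (0.0%; 231 at an unadjusted p under 0.05; 17, or 1.18%, by DESeq2), and 0 of the 34 members tested passed, with 0 at an unadjusted p under 0.05 and 0 by DESeq2. Members were below 0 for 19 and above for 15, with a median of -0.21, where 49.9% of all tested genes were below 0. Of the other chloroplast genes, 81 of 91 tested were below 0, with a median of -0.57. Without PORI rpt2a 1 or PORI rpt2a 2, 0 members passed, where 0.0% and 0.316% of all genes did.

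Over all lengths the other chloroplast genes had a median log2 fold change of -0.63, with 85 of 96 below 0. The chloroplast tRNA genes had 0.14, or -0.16 scaled to the total of the 3 tables, and the nuclear tRNA genes had 0.18, with 86 of 206 below 0. The other chloroplast genes held 18.4%, 17.96%, 16.7% and 13.4% of the gene counts and the nuclear tRNA genes 3.01%, 2.47%, 3.37% and 2.13%. The difference between classes was not tested, since genes of a class are not replicates of a genotype.

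The mRNAs of enzymes that trim or cut tRNAs left almost no small RNA reads. Of the 12 listed, which included the RNase P proteins PRORP1 to PRORP3, the RNase Z enzymes TRZ1 to TRZ4, the plastid tRNA deaminase TADA and the ribonucleases RNS1 to RNS3, 0 had enough counts to be tested. PRORP1, the organellar RNase P protein, had 10, 3, 6 and 2 counts and TADA had 10, 6, 4 and 1. Small RNA counts do not measure the level of these mRNAs.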

How the data were processed

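Small RNA reads of 2 PORI and 2 PORI rpt2a seedling libraries were analysed, grouped by the sample titles. Per the labels' protocols, total RNA was size-selected on a denaturing gel and made into libraries with an Illumina kit. The authors deposited whole-number read counts per feature and read length (18 to 26 nt) in 3 tables per library. Per the submitters' processing notes, the build was TAIR10 and the tools were HTSeq and DESeq2 (no versions given), with CASAVA 1.8.2 and cutadapt 1.9.1 named as well, and FastQC 0.11.2. The aligner, the use of strand and the handling of reads with several matches are not given in the sources used here, so reads of identical or overlapping genes can have been placed on any of them.

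Counts were summed over all lengths and over 18 to 20, 21 to 22 and 23 to 26 nt. Each sum was tested on the whole gene table in edgeR 4.0.16 (R 4.3.3): TMM scaling, a minimum count of 10 and total of 15, the quasi-likelihood test, and Benjamini-Hochberg adjustment over all tested genes at 0.05. SE is the log2 fold change over the root of F. Members, lists and tests were chosen with earlier results of these data known. Shares and mean lengths were tested by exact permutation over libraries, with scipy 1.17.1. DESeq2 1.42.0, other scalings and filters, the replicate number as a block, and leaving out each library were alternatives. On simulated counts for the 8110 genes of the all-length comparison, 99% of genes changed 4-fold were recovered. The changed genes were drawn only from those above a set expected count, and all genes were given the same spread. Genes with few reads are therefore not covered. That rate holds for the simulated counts only. It was not measured at the spread seen between the real libraries, where the second mutant library stood apart. The absence of calls among the chloroplast tRNA genes therefore does not exclude 4-fold changes.

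Identifiers were used as given, since the RefSeq table (assembly TAIR10.1) pairs none of the 37. Nuclear tRNA genes were taken from its gene classes. Planned comparison lists of chloroplast rRNA, chloroplast protein and mitochondrial tRNA genes could not be taken from those classes. Single tRNAs could not be named by amino acid or intron either. The 97 other chloroplast identifiers stand in for the chloroplast lists. The chloroplast rRNA identifiers used as tissue markers came from a separate list and are among the 97. Genes named were the 8 tRNAs with the highest mean CPM, the 5 largest fold changes each way, the longest and shortest profiles, nearest profiles and, as said, others.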

Additional observations from a re-analysis of the deposited data

How the results depend on the processing

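The counts of chloroplast tRNA genes that passed were 0 in each of the 4 length sets in edgeR, and in the sets of all lengths, 18 to 20 nt and 23 to 26 nt they stayed at 0 under every other scaling, filter and test. At 21 to 22 nt DESeq2 gave 2 and the replicate block 3 (ATCG00310, ATCG00370 and ATCG00410), where 20.7% of all genes passed. Leaving out 1 library gave 0 to 20 genes over all lengths, 0 to 9 at 21 to 22 nt and 0 to 14 at 23 to 26 nt. The median log2 fold change over all lengths, 0.14, was -0.16 scaled to the total of the 3 tables, where the median of all genes moved from -0.036 to -0.25, -0.24 with a minimum count of 50, which kept 32 genes, and -0.42 to 0.55 with 1 library left out. The share of chloroplast tRNA genes differed by 0.309 percentage points in the other direction when taken of chloroplast counts. The cause of these differences was not tested. Of 16 genes in the rule for naming, 9 changed sign under at least 1 alternative. Scaled to the 3 tables, ATCG00930 was at -0.20, ATCG00620 at -0.026 and ATCG00320 at -0.12, and with a minimum count of 50 they were at -0.14, -0.019 and -0.18. With 1 library left out, ATCG00010 ran from -0.29 to 1.29, ATCG00060 from -0.029 to 1.84, ATCG00310 from -1.86 to 0.052, ATCG00320 from -0.040 to 0.33, ATCG00400 from -0.79 to 0.22, ATCG00620 from -0.031 to 0.63, ATCG00930 from -0.52 to 0.71, ATCG00940 from -0.64 to 0.10 and ATCG00980 from -0.66 to 1.65. The replicate numbers do not pair the samples by any label, and deviations of same-numbered libraries correlated at 0.170 over all tested genes and 0.414 over the 37. With the number as a block, 596 genes passed over all lengths in place of 2, and 0 of the 37. Over all lengths 669 genes passed with no low-count filter, 589 by DESeq2 and 0 with a minimum count of 50. Depth limits the 8 tRNAs with under 100 counts in a library, for which no profile is given.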
